A study of Mus musculus with 4 samples.

Results

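The promoters described here are CpG-poor, that is, their sequence holds far fewer CpG dinucleotides than its C and G content would give by chance. Windows reaching 1 kb upstream and 1 kb downstream of the gene-level start of transcription (TSS) were taken for 22367 protein-coding genes of the GENCODE vM1 annotation on the mm9 build of the mouse genome. A promoter was a member when it lay on chromosomes 1 to 19, when its observed over expected CpG was below 0.35, and when no other protein-coding TSS lay within 2 kb. The rule used sequence and annotation alone and gave 8051 promoters. For comparison, the isolated promoters on the same chromosomes also held 4777 CpG-intermediate promoters, with a value of 0.35 to 0.60, and 5551 CpG-rich promoters, with 0.60 or more.

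The reads came from chromatin immunoprecipitation and sequencing (ChIP-seq) in E14TG2a.4 cells, embryonic stem cells of the mouse that grow without feeders and were kept with LIF, in a study of Jarid1b targets and neural differentiation. Histone H3 trimethylated at lysine 4 (H3K4me3) was measured with 1 library from cells carrying a lentiviral PLKO.1 shRNA against Jarid1b and 1 library from cells carrying a scramble shRNA, both after puromycin selection. Jarid1b itself, a demethylase of that mark also called Kdm5b, was measured with 2 libraries from cells labelled E14 ESCs, for which the labels name no shRNA of their own. All groups share the parental line, and the labels do not say how many transductions or cultures stood behind a library. The level of Jarid1b in the knockdown cells was not measured in these libraries.

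After 1 read was kept per strand and 5′ position, 2635705 reads remained in the Jarid1b shRNA library and 5158330 in the scramble library. A window holds 2.06 and 4.03 reads in these libraries at the average rate of the genome. The Jarid1b libraries kept 4336767 and 1602370 reads. They shared fragments: 16.8% of plus-strand positions of replicate 2 lay at positions of replicate 1, against a median of 1.34% at other offsets. Their difference was within the sampling noise (chi-square per degree of freedom 0.997 over 12603 promoters with 10 or more reads), so they were counted as 1 sample. With n = 1 for every condition, the p-values below are from one-sided Poisson tests within a library, and intervals cover counting error only. Of 10 stem cell markers, 7 were enriched for H3K4me3 in the Jarid1b shRNA library and 8 in the scramble library. Of 10 fibroblast markers, 3 were enriched in each library. Of 5 neuron markers all passed in each library. Levels below are RPM, the read count scaled to the reads kept in each library. In the same order of libraries, the summed level was 274.69 and 339.45 RPM for the stem cell markers, 36.80 and 16.67 RPM for the fibroblast markers, and 77.02 and 67.46 RPM for the neuron markers. The part of other cell types in the results below was not tested.

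CpG dinucleotides are the sites of DNA methylation in mammals, and methylated CpGs mutate readily, so most of the genome has lost them. Stretches that stay unmethylated in the germ line keep their CpGs as islands, and unmethylated CpGs are bound by CXXC-domain proteins that recruit H3K4 methyltransferases. Promoters without an island mostly belong to genes used in one or a few tissues, such as odorant receptors, digestive enzymes and keratins, and depend more on sequence-specific factors and TATA boxes. Some genes of pluripotent cells, among them Pou5f1 and Nanog, are of this kind.

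The sequences below show what CpG-poor means in bases. Each is the stretch from 250 bases to 1 base upstream of the annotated TSS, 5′ to 3′ on the strand of the gene in mm9, with every CpG in capitals. Pou5f1 and Zfp960 held the most scramble H3K4me3 reads, Calcoco2 and A230065H16Rik had ratios among the highest of Jarid1b shRNA over scramble, Gm14443 had one of the lowest ratios, and Gm10807 had the highest Jarid1b enrichment.
Pou5f1 (chr17:35642732-35642981, plus strand): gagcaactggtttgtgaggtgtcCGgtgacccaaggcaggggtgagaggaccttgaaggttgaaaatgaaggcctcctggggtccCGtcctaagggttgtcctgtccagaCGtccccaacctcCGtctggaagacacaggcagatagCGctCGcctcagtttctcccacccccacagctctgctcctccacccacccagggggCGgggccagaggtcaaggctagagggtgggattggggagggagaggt
Zfp960 (chr17:17200827-17201076, plus strand): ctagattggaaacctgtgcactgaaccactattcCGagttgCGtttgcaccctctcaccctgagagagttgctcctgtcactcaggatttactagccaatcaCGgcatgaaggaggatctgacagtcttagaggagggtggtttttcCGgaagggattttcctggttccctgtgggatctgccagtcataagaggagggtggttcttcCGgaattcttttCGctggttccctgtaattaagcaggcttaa
Calcoco2 (chr11:95973279-95973528, minus strand): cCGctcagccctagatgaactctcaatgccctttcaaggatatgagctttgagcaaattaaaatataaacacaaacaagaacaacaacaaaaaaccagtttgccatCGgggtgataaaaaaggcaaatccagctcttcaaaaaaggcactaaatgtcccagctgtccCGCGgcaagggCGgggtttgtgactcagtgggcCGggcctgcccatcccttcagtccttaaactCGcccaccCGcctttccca
A230065H16Rik (chr12:112644770-112645019, plus strand): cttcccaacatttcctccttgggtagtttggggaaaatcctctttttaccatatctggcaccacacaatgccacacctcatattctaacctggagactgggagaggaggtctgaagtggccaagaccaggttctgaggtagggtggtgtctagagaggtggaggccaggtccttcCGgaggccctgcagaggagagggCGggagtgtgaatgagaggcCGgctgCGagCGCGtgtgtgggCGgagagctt
Gm14443 (chr2:175001373-175001622, minus strand): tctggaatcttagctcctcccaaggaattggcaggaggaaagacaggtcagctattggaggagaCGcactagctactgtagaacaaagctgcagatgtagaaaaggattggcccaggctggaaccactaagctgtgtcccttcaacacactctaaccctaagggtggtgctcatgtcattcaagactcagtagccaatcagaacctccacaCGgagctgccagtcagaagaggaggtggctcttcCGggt
Gm10807 (chr10:57694762-57695011, minus strand): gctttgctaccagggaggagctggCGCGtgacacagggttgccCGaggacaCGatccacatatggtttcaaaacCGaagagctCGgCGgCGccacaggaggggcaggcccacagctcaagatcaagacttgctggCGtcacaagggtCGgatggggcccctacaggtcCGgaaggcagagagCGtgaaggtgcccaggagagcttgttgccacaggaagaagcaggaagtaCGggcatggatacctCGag
CpGs numbered 7 in the stretch of Pou5f1, 3 in that of Gm14443 and 14 in that of Gm10807.

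H3K4me3 was found at about 1 in 10 CpG-poor promoters in either condition, whereas nearly all CpG-rich promoters carried it. It was enriched at 767 of 8051 members in the Jarid1b shRNA library (9.53%, Wilson 95% interval 8.90% to 10.2%) and at 817 in the scramble library (10.1%, 9.51% to 10.8%). The share over all 22367 promoters was 59.9% in the Jarid1b shRNA library and 60.0% in the scramble library. Among CpG-intermediate promoters it was 85.1% and 85.2%, and among CpG-rich promoters 99.4% and 98.3%, in the same order. Both libraries marked 612 members, 155 passed in the Jarid1b shRNA library alone, 205 passed in the scramble library alone, and 7079 passed in neither. These differences between libraries were not tested, and the scramble library was the deeper one: thinned to the reads of the other, it passed 693 members.

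The enriched members also carried less of the mark. The median enriched member held 14 reads (5.31 RPM) in the Jarid1b shRNA library and 21 reads (4.07 RPM) in the scramble library. The median enriched CpG-rich promoter held 84 reads (31.9 RPM) in the Jarid1b shRNA library and 103 reads in the scramble library. The fewest reads with which a member passed were 6 and 9. Lower levels were not detectable at this depth.

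Within the class, H3K4me3 followed the CpG content. In members with an observed over expected CpG of 0.05 to 0.10, 0.522% of 958 promoters were enriched in the Jarid1b shRNA library and 1.15% in the scramble library. In the band of 0.20 to 0.25 it was 9.79% and 9.15% of 1410, and in the band of 0.30 to 0.35 it was 35.9% and 38.0% of 911. The next band outside the class, from 0.35 to 0.40, had 56.6% and 60.3% of 784. There was thus no step at the threshold that defines the class. Just inside it, Cirbp, which encodes a cold-inducible RNA-binding protein, had 10 Jarid1b shRNA and 16 scramble reads, and Fgf7, a fibroblast growth factor gene, had 0 and 2. Just outside it, Mfsd2b had 9 and 11 reads, and Ccdc8 had 1 and 7.

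**Figure D1:**
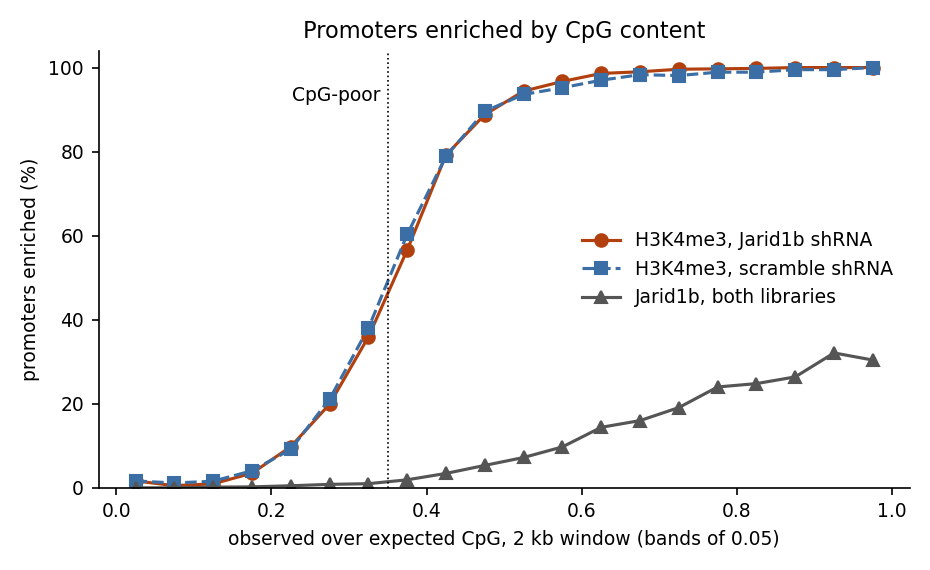
Share of isolated promoters on chromosomes 1 to 19 that were enriched (y axis, %) by observed over expected CpG of the window (x axis, bands of 0.05), for H3K4me3 in the Jarid1b shRNA library, H3K4me3 in the scramble library and Jarid1b in both of its libraries. The H3K4me3 shares pass 35.9% and 38.0% in the last band left of the dotted line at 0.35, while the Jarid1b share there is 0.988%.

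GC content moves with CpG content, and the marked members were richer in GC, with a median of 49.9% in the 817 scramble-marked members against 44.0% in the 7079 unmarked ones. At a like GC content the classes still stood apart. Between 50% and 55% GC, 289 of 1411 members were enriched in the Jarid1b shRNA library and 282 in the scramble library. CpG-rich promoters with that GC content had 99.0% and 98.6% of 1466. Between 40% and 45% GC the shares were 3.76% and 4.94% of 2208 members, against 96.6% in both libraries for 29 CpG-rich promoters.

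Some of the members lie near sequence of another kind. Of the members with a CpG-island-like stretch within 5 kb of the TSS, 16.2% of 1011 were enriched in the Jarid1b shRNA library and 17.5% in the scramble library. Without such a stretch it was 8.57% and 9.09% of 7040. Members with another transcript start within 2 kb had 16.1% and 17.6% of 1866, and members without one 7.55% and 7.89% of 6185. In 89 of the 817 scramble-marked members (10.9%), the 500 bases with the most scramble reads within 5 kb lay more than 1 kb from the TSS. The corresponding share was 6.40% of 5457 CpG-rich promoters. Lefty1 and Lefty2, described below, are among the 89, with maxima 1950 and 1250 bases downstream.

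Around the TSS, the mark of CpG-poor promoters had its summit just downstream. Over the 612 members marked in both libraries, the level per 100 bases was highest 150 bases downstream of the TSS in each, at 1.28 RPM in the Jarid1b shRNA library and 1.66 RPM in the scramble library. Within the window, 78.5% and 81.5% of the reads lay downstream. CpG-rich promoters marked in both libraries had their summit at the same place, at 4.52 RPM in the Jarid1b shRNA library and 2.25 RPM in the scramble library. Between the libraries, the summit of the CpG-rich class was thus higher in the Jarid1b shRNA library, and that of the CpG-poor class was not. Members that passed in neither library had a low local summit at the same place. In the Jarid1b shRNA library they reached 0.0428 RPM per 100 bases at 50 bases downstream, against 0.0192 RPM at 650 bases upstream. In the scramble library they reached 0.0403 RPM at 150 bases downstream, against 0.0229 RPM at 550 bases upstream. Farther downstream their level was higher again, with 0.0575 and 0.0504 RPM at 1850 bases. Passing was judged within 1 kb of the TSS, against the flanks where these exceeded the genome rate. Choosing members that did not pass thus favours levels that rise outside the window.

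**Figure D2:**
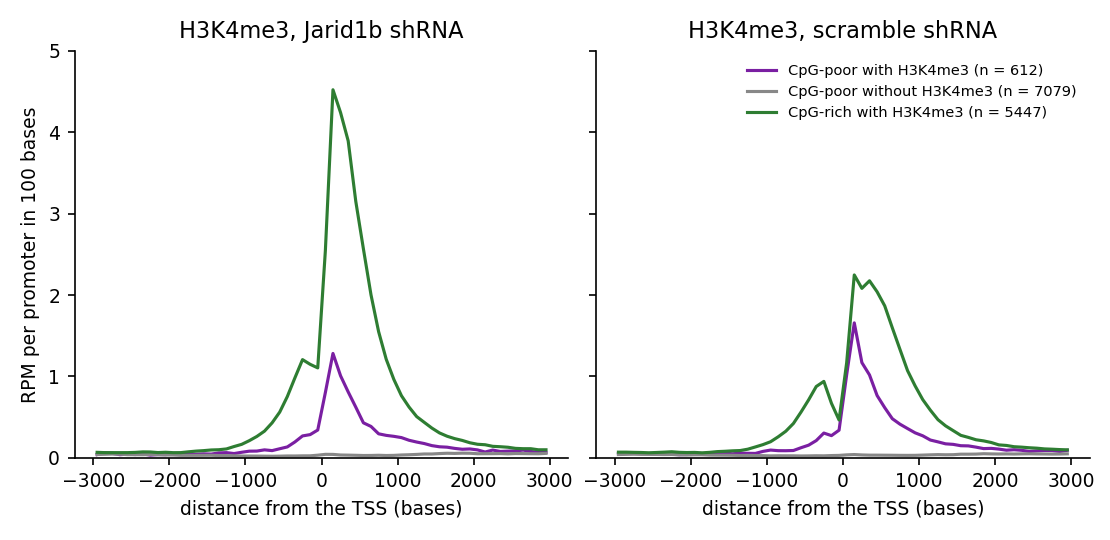
Mean H3K4me3 level per promoter (y axis, RPM in bins of 100 bases) by distance from the TSS in the direction of transcription (x axis, bases), in the Jarid1b shRNA library (left) and the scramble library (right), for members marked in both libraries, members marked in neither and CpG-rich promoters marked in both. The marked members peak at 1.28 RPM on the left and 1.66 RPM on the right, and the unmarked members stay at or below 0.0575 RPM on the left and 0.0504 RPM on the right.

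Letters of known promoter elements were counted in the mm9 sequence. TATAAA, the core of the TATA box, which positions transcription initiation, was searched on the gene strand from 45 to 16 bases upstream. It was held by 4.96% of the members and by 2.53% of all promoters. The median GC content of these windows was 44.8% and 51.1%, and its part in the shares was not tested. Scramble-marked members held TATAAA in 2.45% (interval 1.59% to 3.75%) and members without H3K4me3 in either library in 5.16% (4.66% to 5.70%). GGGCGG, which Sp1 recognises and which itself contains a CpG, was searched on both strands in the 150 bases upstream. It was held by 25% of scramble-marked members, 5.47% of members without the mark and 35.5% of all promoters. CCAAT, bound by NF-Y, was searched on both strands from 120 to 41 bases upstream and was held by 19.6% of scramble-marked members, 14.7% of members without the mark and 17.3% of all promoters. The palindrome CACGTG, an E-box, was held by 2.26% of the members and 4.62% of all promoters in the 150 bases upstream. It also contains a CpG, so the rule that chose the members disfavours it. No searched motif contains another.

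By gene family, the sensory receptors of the nose made up the largest group of members and were almost never marked. Of 1113 olfactory receptor promoters 1086 were CpG-poor, and 7 of these were enriched in the Jarid1b shRNA library and 11 in the scramble library. The most reads were at Olfr1344, with 24 Jarid1b shRNA and 35 scramble reads. None of 325 vomeronasal receptor promoters, 48 taste and trace amine receptor promoters, 51 defensin promoters, 25 prolactin family promoters and 15 type I interferon promoters passed in either library. Their highest read counts were 4 in the Jarid1b shRNA library and 8 in the scramble library. These windows were also poor in GC, with a median of 38.4% for the olfactory and 36.3% for the vomeronasal receptors. Of all 1887 members below 40% GC, 0.371% were enriched in the Jarid1b shRNA library and 0.742% in the scramble library. The olfactory share in the scramble library was 1.01%. Many olfactory receptors are themselves among the members below 40% GC, and others lie above it. These shares therefore cannot separate the receptors from other members of like GC content. A median of 71.4% of the 32-base words of the vomeronasal receptor windows occur once in the genome. Reads at repeated words were also placed: 84.6% of Jarid1b shRNA and 79.7% of scramble reads started at words found once. What part repeated sequence played in these counts was not tested.

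Lists of tissue genes ranged from no marked member to shares above that of all members. In the scramble library 12% of the muscle list, 12.5% each of the peptide hormone and eye lists and 23.1% of the matrix and adhesion list passed, beside 10.1% of all members. None of 27 digestive enzyme genes passed. Of 30 liver and plasma protein genes, 1 passed in each library: Apob, the apolipoprotein B gene, in the Jarid1b shRNA library with 6 reads against 8 scramble reads, and F2, the prothrombin gene, in the scramble library with 15 reads against 8 Jarid1b shRNA reads. Of 29 blood and immune genes, 1 and 2 passed. Laptm5, a lysosomal membrane protein gene of blood cells, was the one with a substantial signal, at 53 Jarid1b shRNA and 59 scramble reads. Lck, a T cell kinase gene, passed in the scramble library with 9 reads, against 1 read in the Jarid1b shRNA library. Of 25 muscle genes, 2 and 3 passed, with Ryr1, the calcium release channel of skeletal muscle, highest at 13 and 31 reads. Of 25 early embryo and oocyte genes, 1 passed in both libraries: Zp3, which encodes a protein of the egg coat, had 10 Jarid1b shRNA and 24 scramble reads.

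Keratins and their associated proteins had 13 and 10 marked promoters of 84, serpins 3 and 6 of 54, cytochromes P450 5 and 7 of 82, interleukins and chemokines 3 and 5 of 85, and solute carriers 9 and 10 of 120, each with the Jarid1b shRNA library first. In the scramble library those shares ranged from 5.88% for interleukins and chemokines to 11.9% for keratins, beside 10.1% of all members. Among the smaller tissue lists, 3 and 2 of 16 peptide hormone genes passed; Gal, the galanin gene, had 14 Jarid1b shRNA and 17 scramble reads, and Hcrt, the orexin gene, passed in the Jarid1b shRNA library alone with 24 reads, against 16 scramble reads. Of 16 eye and lens genes 2 passed in each library, and of 14 testis and meiosis genes 1 and 0, the 1 being Odf1, a sperm tail gene, with 9 Jarid1b shRNA and 5 scramble reads. Of 19 skin and gland genes, 1 passed in both libraries, Krt4, with 7 and 21 reads.

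**Figure D3:**
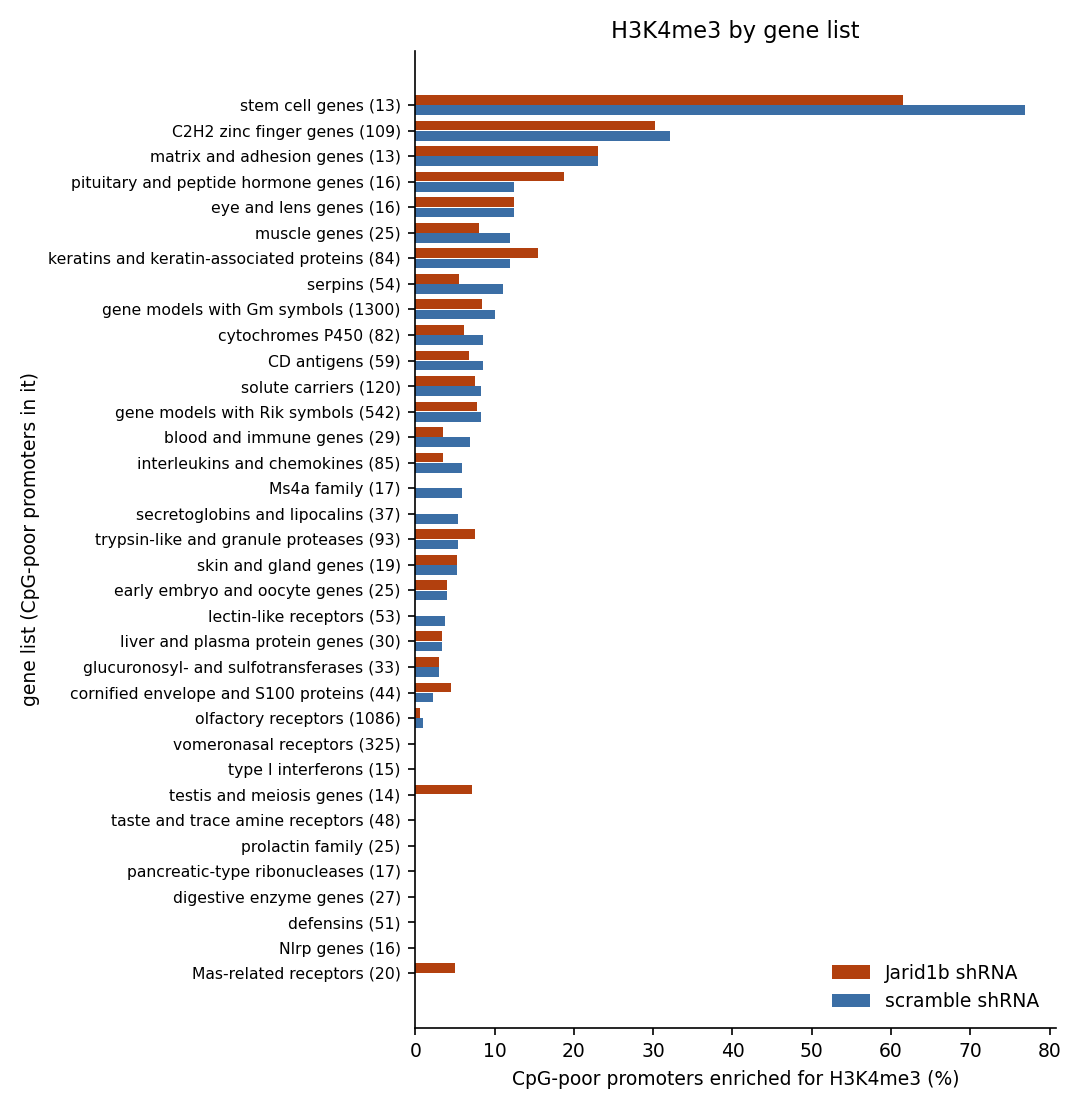
Share of the CpG-poor promoters of each gene list (rows, number of such promoters in brackets) enriched for H3K4me3 (x axis, %), with the Jarid1b shRNA library above the scramble library in each row. Stem cell genes head the plot with 8 and 10 of 13, followed by zinc finger genes with 33 and 35 of 109, and vomeronasal receptors have none of 325.

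Stem cell genes had the highest share of marked members among the lists drawn up. Of 40 such genes 13 had CpG-poor promoters, and H3K4me3 was enriched at 8 of the 13 in the Jarid1b shRNA library and at 10 in the scramble library. Pou5f1, which encodes the pluripotency factor Oct4, held more scramble reads than any other member whose symbol belongs to 1 gene. Its window on chromosome 17 had 126 reads (47.8 RPM) in the Jarid1b shRNA library and 401 reads (77.7 RPM) in the scramble library. The log2 ratio was -0.70 (95% interval -1.0 to -0.41), and the adjusted p within the libraries was 3.15e-51 and 2.71e-176. Nanog, a homeobox pluripotency factor, had 52 reads (19.7 RPM) in the Jarid1b shRNA library and 239 (46.3 RPM) in the scramble library, a log2 ratio of -1.23 (-1.69 to -0.79). Neither interval of the log2 ratio reached 0.

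The others of the list were lower in RPM in the Jarid1b shRNA library as well, wherever the mark was present. Fbxo15, an F-box protein gene used as a marker of pluripotent cells, had 42 Jarid1b shRNA reads and 198 scramble reads (log2 ratio -1.27, -1.78 to -0.78). Gdf3, a TGF-beta family ligand gene near Nanog, had 41 and 185 reads (-1.21, -1.73 to -0.71). Dppa5a, an RNA-binding protein gene of pluripotent cells, had 30 and 127 reads (-1.11, -1.74 to -0.53). All of these intervals lay below 0.

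Spp1, which encodes the secreted protein osteopontin, had 19 Jarid1b shRNA and 93 scramble reads (log2 ratio -1.32, -2.12 to -0.60). The neighbouring genes Dppa2 and Dppa4, whose products bind DNA in early embryos, had 23 and 20 Jarid1b shRNA reads against 84 and 73 scramble reads, and a log2 ratio of -0.90 each. Lefty1, an inhibitor of Nodal signalling, had 8 Jarid1b shRNA reads and 66 scramble reads (-2.08, -3.35 to -1.01). Lefty2, its neighbour, had 14 and 40 reads and an interval that included 0 (-1.54 to 0.36). Both passed in the scramble library alone.

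Tet1, Esrrb and Nr5a2 were not enriched at the annotated gene-level TSS, with 9, 0 and 2 Jarid1b shRNA reads and 13, 3 and 1 scramble reads. In all, 10 stem cell members could be compared, of which 6 were called lower and 0 higher by the 2-fold rule given below. Lefty1, which is among the 6, and Lefty2 were compared only through the scramble library, where they were higher. The other 8 passed in both libraries. Of all 670 members compared 9.70% were called lower and 8.36% higher, and of all promoters compared 2.37% were lower and 24.0% higher. Of the 223 members with the highest mean level (8.66 to 62.8 RPM), which include Pou5f1 and Nanog, 47 were called lower and 3 higher. The median log2 ratio of those 223 was -0.54, and stem cell genes were not tested against members of like level. The median log2 ratio of the 10 was -1.16. The stem cell genes with other promoters had a median of 0.22 over 24 compared, with 2 called lower and 1 higher. All 10 compared stayed below 0 when the trend of the ratio with GC content was removed, with Pou5f1 at -1.37 and Nanog at -1.09. The stem cell list was drawn up with earlier results of these libraries known, and the members' order on the plot of stem cell genes is by scramble reads.

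**Figure D4:**
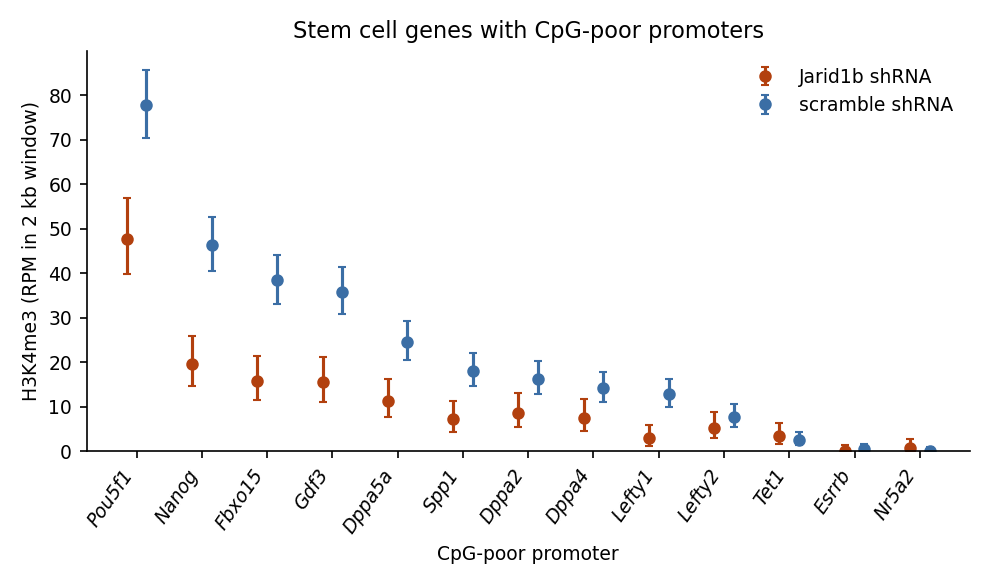
H3K4me3 level (y axis, RPM in the window of 2 kb) at the 13 stem cell genes with CpG-poor promoters (x axis), in the Jarid1b shRNA library and the scramble library, with exact Poisson 95% intervals of the read count. From Pou5f1 to Lefty2 the Jarid1b shRNA point lies below the scramble point, and among these 10 the intervals overlap for Dppa2, Dppa4 and Lefty2.

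Zinc finger genes had the next highest share. C2H2 zinc finger proteins of this family, many with a KRAB domain, silence transposons, and their genes lie in clusters of similar copies. Of 109 CpG-poor promoters with zinc finger symbols, 33 were enriched in the Jarid1b shRNA library and 35 in the scramble library (32.1%). Zfp960 and Zfp97, a pair on chromosome 17, came next to Pou5f1 with 83 and 71 Jarid1b shRNA reads against 385 and 315 scramble reads. Their log2 ratios were -1.24 (-1.61 to -0.90) and -1.18 (-1.57 to -0.81). Of the words of 32 bases in their windows, 49.4% and 0.203% occur once in the genome. No read at Zfp97 started at a word found once, so its reads and those of its copies cannot be told apart.

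Marked members of this kind lay close together, as did some of other kinds. Groups were made, after the values were seen, of at least 6 scramble-marked members with gaps of at most 500 kb. Not all groups are described here, and several hold few or no zinc finger symbols. On chromosome 11 between positions 99105399 and 100632271, for instance, 9 of 80 members were scramble-marked, 1 of them with a zinc finger symbol. On chromosome 2 between positions 174835742 and 177813181, 42 of 49 members were marked in each library, with 13 to 52 Jarid1b shRNA reads and 59 to 134 scramble reads. Of the 42, 38 carry Gm symbols, given to gene models without a name. The median share of words found once was 0 in these windows, so reads cannot be assigned to single copies. With only reads at words found once, 17 of the 42 passed in the scramble library.

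On chromosome 4 between positions 144905067 and 147359897, 17 and 18 of 24 members were marked, with 4 to 58 Jarid1b shRNA reads and 10 to 255 scramble reads at the 18 marked in the scramble library, among them Gm13247 with 55 Jarid1b shRNA and 255 scramble reads. On chromosome 13 between positions 66542067 and 67856165, 13 and 14 of 23 members were marked. This cluster holds Rsl1, whose product represses male-specific liver genes. Its marked windows were more unique, with a median of 71.9% of words found once. There 13 of the 14 passed in the scramble library with reads at such words alone. Over all scramble-marked members, 99 of 817 had fewer than 50% of their words found once, and 695 of 817 passed with the restricted reads.

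Other strongly marked members came from many roles. Ifitm2, an interferon-induced transmembrane protein gene that blocks virus entry, had 83 Jarid1b shRNA and 291 scramble reads (log2 ratio -0.84, -1.21 to -0.48). Chosen after its values were seen, Gapdh, the glycolysis gene often used as a housekeeping standard, had 54 and 170 reads (-0.69, -1.16 to -0.24), with the scramble maximum 1950 bases downstream of the annotated TSS. Mmp2 and Tek, a matrix protease gene and an endothelial receptor gene of the matrix and adhesion list, had 27 and 10 Jarid1b shRNA reads against 33 and 25 scramble reads. Of that list, 3 of 13 members passed in each library, the remaining one being Spp1, which is also counted in the stem cell list.

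The question of the knockdown libraries is whether H3K4me3 changes when Jarid1b, which removes it, is depleted. A ratio was formed where H3K4me3 passed in one library or both and the summed reads reached 20. Calls of higher or lower required a 2-fold difference and a log2 interval that left out 0. Of 972 members enriched in either library 670 could be compared. Of these, 56 were called higher (8.36%), 65 lower (9.70%) and 549 neither. Over all 13273 promoters compared, 24.0% were called higher and 2.37% lower. The filter on reads keeps members through either library, so the 670 are not all members. A member marked in 1 library alone enters through the library that favours a call in its direction. Of the 39 compared that were marked in the Jarid1b shRNA library alone, 23 were called higher and 0 lower. Of the 66 marked in the scramble library alone, 1 was higher and 9 lower. Of the 565 marked in both, 32 were higher (5.66%) and 56 lower (9.91%).

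The median log2 ratio of the 670 members was -0.03 (order-statistic interval -0.11 to 0.07, over promoters, which are not replicates). Over all promoters compared it was 0.41, over CpG-intermediate promoters 0.27 and over CpG-rich promoters 0.74. Relative to the median of all promoters, the members were thus 0.44 lower, and 331 of them lay above 0 and 339 below. How the libraries are scaled moves the split of calls. With the median of all promoters set to 0, 18 members were higher and 157 lower, and with reads in background bins set equal, 101 were higher and 36 lower. With 1 library per condition no test of the difference between classes was made.

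The ratio rose with GC content in every class. In members it had a median of -0.91 (-1.03 to -0.59) at 40% to 45% GC, -0.39 (-0.53 to -0.29) at 45% to 50%, 0.16 (0.06 to 0.36) at 50% to 55% and 0.56 (0.45 to 0.81) at 55% to 62%. CpG-rich promoters had medians of -0.39, -0.07, 0.34 and 0.87 in the same strata. The members' median was lower than that of CpG-rich promoters in each of these strata. Background bins away from promoters had a log2 ratio of -0.28 at 42.5% to 45% GC and 0.35 at 52.5% to 55%, and with that trend removed the median of the members was -0.19. What part GC content played in the ratios was not tested.

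**Figure D5:**
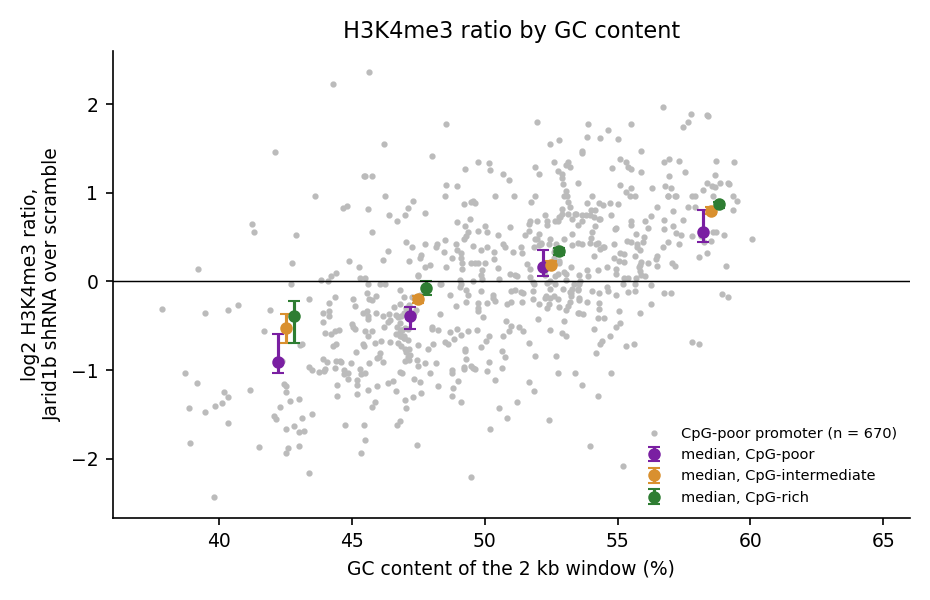
Log2 H3K4me3 ratio of the Jarid1b shRNA library over the scramble library (y axis) by GC content of the window (x axis, %), with 670 members as grey points and the medians of the CpG-poor, CpG-intermediate and CpG-rich classes in 4 strata of GC content from 40% to 62%, with 95% order-statistic intervals. Each class rises with GC content, and the CpG-poor median is the lowest of the classes in each stratum.

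The level of the mark moved with the ratio as well. The 223 members with the highest mean level (8.66 to 62.8 RPM) had a median log2 ratio of -0.54 and a median GC content of 48.0%. The 224 at 4.30 to 8.64 RPM had 0.27, at 52.4% GC. The 223 at 2.12 to 4.30 RPM had 0.26, at 51.5% GC. Of the members called lower 47 of 65 were in the highest group, and of the members called higher 3 of 56. CpG-rich promoters also had their lowest median in the highest range, with 0.72 at 8.66 to 62.8 RPM, 1.30 over 225 promoters at 4.30 to 8.64 RPM and 1.10 over 42 promoters at 2.12 to 4.30 RPM.

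Members called lower and higher differed in GC content. Their reads differ by the rule of the calls, which uses the ratio of these reads. Those called lower had a median of 19 Jarid1b shRNA and 95 scramble reads and a GC content of 44.9%. Those called higher had 19 and 13 reads and 54.1% GC. Zinc finger or Gm symbols made up 30 of the 65 called lower, and 24 of the 65 had fewer than 50% of their words found once. Among all 670 members compared, 33 had zinc finger symbols, 102 had Gm symbols and 81 had fewer than 50% of their words found once. Restricted to reads at words found once, 43 members were called higher and 57 lower.

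Among the lowest ratios were genes of varied roles with mostly unique windows. Spink3, a trypsin inhibitor gene of the pancreas, had 2 Jarid1b shRNA and 21 scramble reads (log2 ratio -2.42, -5.56 to -0.39). Rnf125, a ubiquitin ligase gene, had 13 and 97 (-1.93, -2.89 to -1.09), and Enpp3, a nucleotide-cleaving ectoenzyme gene, had 9 and 64 (-1.86, -3.05 to -0.85). With 2 Jarid1b shRNA reads, Spink3 had a wider interval than Rnf125 and Enpp3. Spink3 passed in the scramble library alone, the one where it was higher, and Rnf125 and Enpp3 passed in both. Also among the lowest were Lefty1 and 3 cluster genes, Gm14443, Zfp600 and Gm13138, with 14, 22 and 26 Jarid1b shRNA reads against 122, 164 and 187 scramble reads. At Gm13138 no word of the window occurs once in the genome.

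Genes with ratios among the highest had few scramble reads, which ranking by the ratio favours. Calcoco2, an autophagy receptor gene, had 21 Jarid1b shRNA and 8 scramble reads (log2 ratio 2.36, 1.13 to 3.75). Gdf15, a stress-induced TGF-beta family gene, had 28 and 15 (1.87, 0.92 to 2.88). Hspa12b, a heat shock protein gene of endothelium, had 17 and 9 (1.89, 0.64 to 3.23), and Col7a1, the gene of the collagen of skin anchoring fibrils, had 14 and 8 (1.78, 0.42 to 3.24). A230065H16Rik, Tcf20 and Nccrp1 had 14 to 16 Jarid1b shRNA and 7 to 9 scramble reads. None of those named had more than 15 scramble reads, and Calcoco2, at 45.6%, was the one among them with a GC content below 50%. Calcoco2, Gdf15, Col7a1, A230065H16Rik and Tcf20 passed in the Jarid1b shRNA library alone, so they were compared only through the library where they were higher. Hspa12b and Nccrp1 passed in both libraries.

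Jarid1b enrichment was rarely called at CpG-poor promoters. It was enriched in both libraries at 32 of 8051 members (0.397%, interval 0.282% to 0.561%), against 7.97% of all promoters, 5.95% of CpG-intermediate and 20.1% of CpG-rich promoters. Taken singly, replicate 1 passed 306 members and 5952 of all promoters, and replicate 2, with fewer reads, passed 84 and 2412. A window holds 3.39 and 1.25 reads in them at the genome rate, so weak enrichment could be missed. Both Jarid1b libraries have more reads where GC content is high: background bins held 1.79 and 0.652 reads per kb at 42.5% to 45% GC and 3.85 and 1.51 at 52.5% to 55%, and the median GC content of the 32 was 52.1%. When the expected reads came from background bins of like GC content, 5 members passed, against 139 of all promoters and 101 of the CpG-rich ones. The 5 were Phf21a, Gm13235, Dux, Gm10807 and Gm10339.

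Gm10807, Phf21a, Dux and 4930467E23Rik had the strongest Jarid1b signals, and most of their Jarid1b reads started at words found more than once. Enrichment is given as fold over the genome rate, which is 3.39 and 1.25 reads in replicates 1 and 2. Gm10807 had 115 and 61 Jarid1b reads (33.9 and 48.7 fold), and Dux, a homeobox gene in tandem repeats that is active in cells resembling the 2-cell embryo, had 78 and 42 (23.0 and 33.5 fold). They neighbour each other on chromosome 10, and 24.6% and 19.6% of the words in their windows occur once. Phf21a, a histone-binding protein gene, had 90 and 52 reads (26.5 and 41.5 fold), of which 75.4% lay within 200 bases. In its window 86.2% of the words occur once, but 18 of the 90 reads and 8 of the 52 started at such words. 4930467E23Rik had 54 and 19 reads, with 6.2% of words found once.

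Pou5f1 was enriched as well, with 19 and 13 Jarid1b reads (5.60 and 10.4 fold) and 98.7% of its words found once. It was not among the 5 that passed against background bins of like GC content. Of the 32 members 8 had fewer than 50% unique words, and 22 passed with reads at words found once. H3K4me3 was enriched in either library at 25 of the 32 (78.1%). Of 22 that could be compared for H3K4me3, 1 was called higher and 4 lower in the Jarid1b shRNA library, with a median log2 ratio of -0.15. Over all 670 members compared the median was -0.03, inside the interval of those 22 (-0.65 to 0.62). Phf21a and Gm13235 were among the 4 called lower. Of their H3K4me3 reads, 0 of 15 and 0 of 34 in the Jarid1b shRNA library started at words found once. In the scramble library it was 3 of 59 and 1 of 211. The remaining windows called lower had 54.5% and 54.9% of their words found once, and the window called higher 68.2%.

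The 7079 members marked in neither library were near background, which for H3K4me3 their selection by the same reads favours. Summed over them, reads came to 1.17 times those of background bins of like GC content in the Jarid1b shRNA library and 1.15 times in the scramble library. For the Jarid1b libraries both values were 1.03. For the 612 members marked in both libraries, the H3K4me3 sums were 10.3 and 14.5 times the background, and the Jarid1b sums 1.43 and 1.52 times. The 612 were likewise selected by their H3K4me3 reads, which favours high H3K4me3 sums. Over CpG-rich promoters the H3K4me3 sum was 28.8 times the background in both libraries, and the Jarid1b sums were 1.67 and 1.79 times.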

How the data were processed

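Reads were taken from 4 deposited ChIP-seq files, which list chromosome, start, end and strand of every aligned read. Alignment was by Bowtie against mm9, per the labels' protocols; the Bowtie version was not given in the sources used here. Those protocols also describe 1 match per position, MACS peaks and IgG normalization; the deposited rows still repeat positions, and no IgG library or peak list was used here. The files held 2851928 rows (Jarid1b shRNA), 7530697 (scramble), 5120111 and 1736183 (Jarid1b).

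For each strand and 5′ position on autosomes and sex chromosomes a single read was retained and moved 75 bases towards the fragment centre. Reads in each window were tested against the rate of the genome or, where larger, that of the 10 kb on each side outside the window (one-sided Poisson test, Benjamini-Hochberg over all 22367 windows, threshold 0.05). Ratios are of RPM with exact Clopper-Pearson intervals conditional on the summed reads. Shares have Wilson 95% intervals. The files carry no molecular identifiers, so reads need not be independent molecules. Statistics used Python 3.11.15 and scipy 1.17.1 and were tested on simulated counts.

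The members, gene lists and rule for named genes were chosen with earlier results of these data known. The rule took the 10 members with the most scramble reads, the 8 highest and 8 lowest ratios whose interval excludes 0, the 6 highest Jarid1b enrichments, 3 members per symbol list and 2 promoters on each side of the threshold; 7970 members with a symbol of their own were eligible. Olfr1344, Rsl1 and Gapdh were named after their values were seen. A few items chosen by it, genes and sequences, are left unreported here. Uniqueness of 32-base words was computed on the NCBIM37 assembly that underlies mm9. The closing section gives the alternatives and their effects.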

Additional observations from a re-analysis of the deposited data

How the results depend on the processing

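With each choice changed in turn, 46 of 79 values of the 6 main results stayed within 1.5 times of the count given, or within the interval of the median. The number of members marked in the Jarid1b shRNA library ranged between 440 at an observed over expected CpG below 0.30 and 1211 below 0.40, and in the scramble library between 471 and 1290; with no other transcript TSS within 2 kb they were 467 and 488. Jarid1b-enriched members numbered 17 with at least 90% unique words, 5 against background of like GC content, 3 at an adjusted p of 0.001, and 84 and 306 with either library left out. Members called higher and lower numbered 23 and 42 below 0.30, 29 and 41 with no other transcript TSS, 18 and 157 under median scaling and 101 and 36 under background-bin scaling. Lower calls fell to 29 with at least 90% unique words. Higher calls numbered 106 with repeats kept, 109 below 0.40, 28 with the GC trend removed, 6 with at least 50 reads and 33 with no CpG-island-like stretch within 5 kb. The median log2 ratio was 0.11 with repeats kept, -0.16 with 500 bases on each side, -0.12 below 0.30, 0.16 with 90% unique words, -0.44 under median scaling, 0.21 under background-bin scaling, -0.19 with the GC trend removed and -0.41 with at least 50 reads. Of 42 named genes compared, 2 changed sign: Gm10807 (0.56) was at -0.11 with the GC trend removed, and F2 (0.06, with an interval that includes 0) was at -0.29 with it removed and at -0.35 under median scaling. Apart from narrower or wider member sets, the cause was not tested. Reads at words found once, the island-like stretch and Jarid1b reads within 200 bases were choices made after seeing the data. No paired analysis was possible because each H3K4me3 condition has 1 library.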
